A study of Homo sapiens with 10 samples.

Results

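Collagens are the triple-helical proteins of the extracellular matrix, and the human genome holds a separate gene for each alpha chain. The members described here are the probe sets of a gene expression array that are annotated to exactly 1 gene and whose gene symbol reads COL, a number, A and a number, with nothing after it. There were 112 such probe sets for 43 genes, out of 54675 probe sets in all and 41091 that name 1 gene. A probe set is a group of short oligonucleotides on the array that read 1 stretch of a transcript, and 35 of the 43 genes had more than 1 probe set. The genes were sorted by their known assembly form into basement membrane collagens (22 probe sets), fibrillar collagens (33), epithelial and transmembrane collagens (9), beaded filament and network collagens (22), and fibril-associated and other collagens (26). COL17A1, the hemidesmosome collagen of epithelia, was not analysed here.

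The cells were RWPE-1, an immortalised and non-tumorigenic human prostate epithelial line, kept under normal growth conditions. MSCV retroviruses were used to make stable clones, and every clone, the controls included, carried the bacterial biotin ligase BirA. Labelled total RNA was hybridised to 10 arrays of the Affymetrix HG-U133 Plus 2.0 type: 3 from control cells with BirA alone (replicates A to C), 4 from cells with BirA and ETV1 (A to D) and 3 from cells with BirA and ERG (A to C). ETV1 and ERG are transcription factors of the ETS family that are switched on by gene fusions in many prostate tumours. The series describes RNA from 3 biological replicates, while 4 ETV1 arrays are labelled, and nothing says which arrays came from separate clones or cultures or whether 2 ETV1 arrays share one. So p-values speak only of how far these arrays scatter, which may be technical scatter.

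Collagen chains are made in the endoplasmic reticulum, where prolines and lysines are hydroxylated and chains are folded into trimers, and they are trimmed and crosslinked after secretion. Collagen IV forms the sheet-like network of basement membranes on which prostate basal epithelial cells sit, while the fibrillar collagens build the cables of the stroma and are known mainly from fibroblasts. The collagen IV genes lie in head-to-head pairs: COL4A1 with COL4A2, COL4A3 with COL4A4, and COL4A5 with COL4A6, each pair read outwards from a shared stretch of DNA.

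ETS proteins bind DNA at a core of GGAA, and the probe sets of both genes of the COL4A1 and COL4A2 pair were higher on the ETV1 arrays, as described further on. The stretch between the start sites of that pair is therefore shown whole, from RefSeq on build GRCh38.p14, chr13:110307158-110307283, on the plus strand, which is the strand of COL4A2. Capitals mark a CCAAT box and a GGGCGG box (the GC box bound by SP1), each read on either strand.
COL4A1-COL4A2 shared interval: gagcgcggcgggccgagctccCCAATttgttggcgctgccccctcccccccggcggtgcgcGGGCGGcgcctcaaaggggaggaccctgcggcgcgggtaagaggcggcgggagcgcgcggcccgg
This interval is 126 bases long, 80.2% of it is G or C, and it holds GGAA 0 times on either strand. Among 35116 RefSeq start-site windows of the same length, 74.7% held GGAA, and the median share of G and C was 60.3%. CCAAT was found in 21.1% and GGGCGG in 34.6% of those windows, and overlaps between motifs were allowed. Counts of GGAA in longer windows, which reach past this interval, are given below for both genes of the pair.

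Windows of 250 bases before the start are shown for COL4A6 and COL12A1, and for COL4A5, the neighbour of COL4A6. Some but not all tested probe sets of COL4A6 and COL12A1 were also higher on the ETV1 arrays. Capitals mark GGAA, or TTCC where it lies on the other strand. COL4A5 lies at chrX:108439588-108439837 on the plus strand, COL4A6 at chrX:108439459-108439708 on the minus strand, and COL12A1 at chr6:75206054-75206303 on the minus strand, all on GRCh38.p14.
COL4A5: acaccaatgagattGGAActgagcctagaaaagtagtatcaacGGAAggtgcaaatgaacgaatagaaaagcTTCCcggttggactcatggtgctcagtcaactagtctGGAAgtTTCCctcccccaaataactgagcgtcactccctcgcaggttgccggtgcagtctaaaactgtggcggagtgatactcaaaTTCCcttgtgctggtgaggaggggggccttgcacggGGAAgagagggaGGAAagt
COL4A6: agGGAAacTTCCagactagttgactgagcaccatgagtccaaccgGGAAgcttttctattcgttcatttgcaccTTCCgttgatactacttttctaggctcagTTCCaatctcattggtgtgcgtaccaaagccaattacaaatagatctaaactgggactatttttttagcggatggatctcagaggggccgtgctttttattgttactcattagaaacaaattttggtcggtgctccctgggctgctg
COL12A1: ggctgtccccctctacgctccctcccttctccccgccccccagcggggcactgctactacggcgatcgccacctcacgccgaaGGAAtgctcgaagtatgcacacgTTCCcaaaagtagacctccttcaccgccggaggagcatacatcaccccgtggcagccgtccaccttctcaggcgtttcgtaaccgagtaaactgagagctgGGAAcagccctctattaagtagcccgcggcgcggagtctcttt
The core occurs 8 times before COL4A5, 5 times before COL4A6 and 3 times before COL12A1. In windows of the same length, not shown, it occurs 2 times before COL4A2 and 0 times before COL4A1. The windows of COL4A5 and COL4A6 overlap, and the 5 cores before COL4A6 are among the 8 before COL4A5, read on the other strand. For COL4A6 the start nearest COL4A5 is shown, and the window of its other start holds the core 4 times. The core is common, since 92.7% of all 35116 windows and 39 of the 43 collagen windows (90.7%) hold it, so its presence marks out none of these genes. Windows were matched for 31 of the 43 collagen genes, some of which have several starts. The longer ETS sequence CCGGAA occurred in 0 of the 43 collagen windows and in 14.5% of all windows. A match is a description of these letters and not a binding site.

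The values are probe set intensities, with a median per array between 70.93 and 75.51 on the control and ETV1 arrays and between 48.45 and 52.55 on the arrays labelled ERG. ETV1 probe set 217053_x_at read 72.45, 70.34 and 121.52 on the control arrays and 1301.77, 1689.00, 1442.96 and 844.50 on ETV1 arrays A to D. Probe sets 206501_x_at and 217061_s_at of ETV1 rose as well, and 221910_at was not called. ERG had no such check. Its probe set 211626_x_at read 5.32 to 11.18 on the control arrays and 25.68 to 49.95 on the arrays labelled ERG, while its brighter probe set 222079_at read 182.72 to 191.45 and 7.70 to 10.78. The arrays labelled ERG stood apart: their Spearman correlation with control arrays across all probe sets was 0.766 to 0.811, against 0.956 to 0.969 between ETV1 and control arrays. Of the genes with 2 or more probe sets that differed between the ERG label and control, 50.3% had probe sets going opposite ways, against 4.01% between ETV1 and control. Directions of collagens under the ERG label are therefore given per probe set, while related genes are also counted by gene. All 9 prostate epithelial marker genes measured lay above the array median on every array of every group. Of 9 fibroblast marker genes, 3 did so on all control arrays, the same 3 on all ETV1 arrays (DCN, FBLN1 and THY1) and 2 on all arrays labelled ERG, with summed intensities of 866.94 to 1009.53, 1024.41 to 1085.42 and 443.41 to 455.69, so that the ETV1 sums lay above and the ERG-label sums below all control sums. On all control arrays, 1 of 5 smooth muscle markers (ACTG2), 1 of 7 endothelial markers (PECAM1) and 1 of 4 leukocyte markers (CD3E) lay above the median. On the control and ETV1 arrays their summed intensities overlapped: 210.31 to 281.27 and 238.22 to 260.00 for smooth muscle, 1526.45 to 1726.28 and 1424.40 to 1575.78 for endothelium, and 265.97 to 348.02 and 288.42 to 332.16 for leukocytes. On the arrays labelled ERG these sums were 186.34 to 237.68, 251.00 to 302.59 and 104.87 to 152.21, the last 2 below all control sums.

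Testing required an intensity above the median of the array on 3 or more arrays, and 45 of the 112 probe sets, from 23 genes, passed. Differences are log2 differences of intensity plus 16 from 1 limma model of all 3 groups, and a probe set is said to have risen or fallen when its Benjamini-Hochberg adjusted p over all 25969 tested probe sets was under 0.05. By selection, 4 tested collagen probe sets lay above the median on arrays labelled ERG alone and 1 on ETV1 arrays alone. Of the probe sets that rose on the ETV1 arrays, 2 (COL8A1 226237_at and COL4A6 211473_s_at) would have failed this requirement without those arrays. Of the 67 untested ones, 60 lay at or below the median on every array, and the other 7 lay above it on 1 or 2 arrays.

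The comparison of ETV1 with control asks what expression of ETV1 goes with in these cells. Among the collagens 8 genes rose, of which 4 were basement membrane chains: COL4A2, COL4A1, COL4A6 and COL18A1. The others were the fibril-associated COL12A1, the transmembrane COL13A1, and the network chains COL8A1 and COL8A2, of which COL8A1 was tested only through the ETV1 arrays. COL5A1 and COL9A3 fell. Of the 45 tested probe sets 12 rose and 2 fell, while among all tested probe sets 23.5% differed, 10.4% higher and 13.1% lower. Rises of at least 2-fold were called for 8 collagen probe sets, against 2.6% of all tested, and 1 fell that far, against 1.32%. The rises fell on 8 genes and the falls on 2, and no collagen gene had probe sets called both ways. The median difference was 0.09 over the 45 probe sets and -0.03 over all tested. FBLN1, a matrix protein on the fibroblast marker list, rose in 2 probe sets, by 0.52 and 0.54, and the part of that marker list in the collagen values was not tested.

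**Figure D1:**
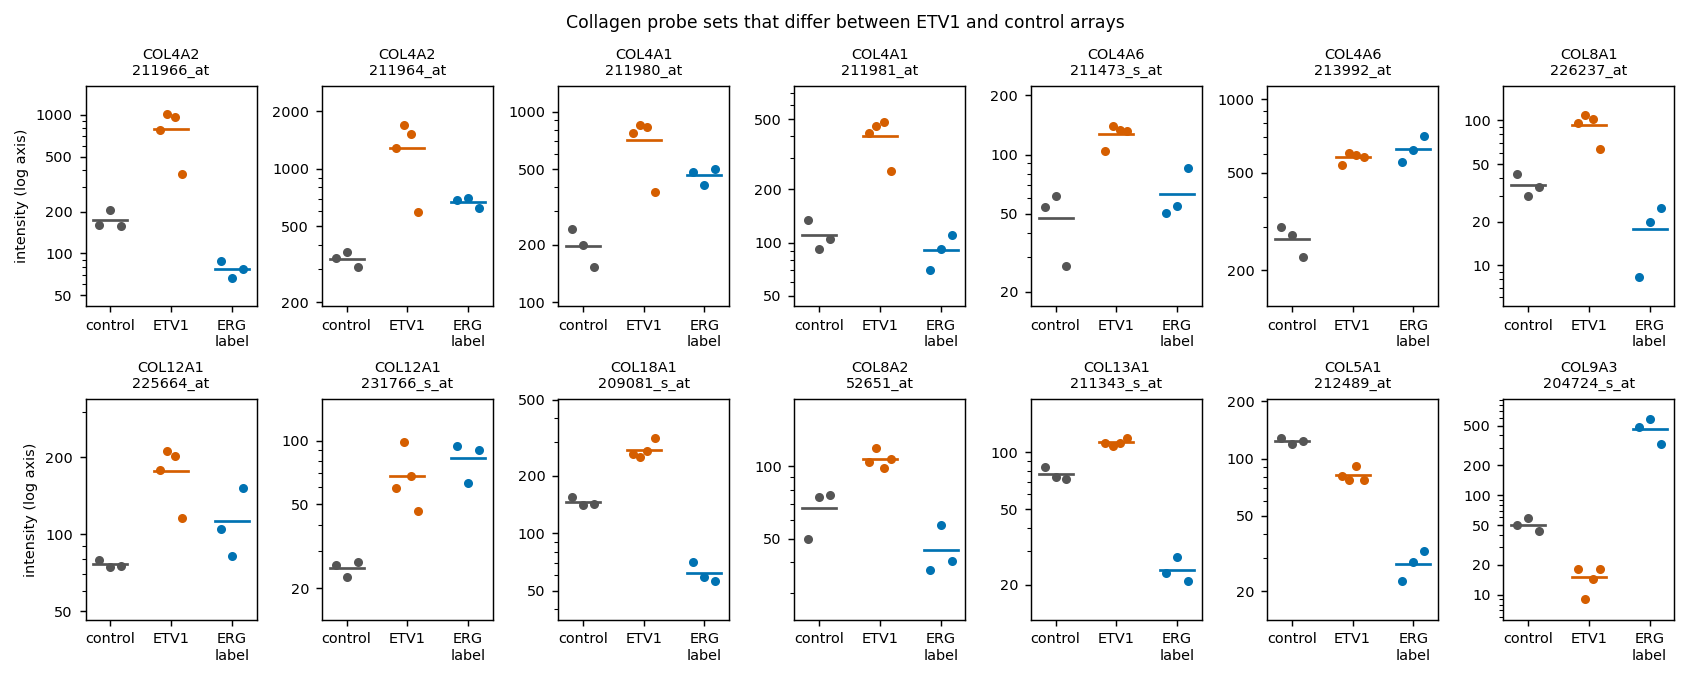
Intensity (log axis) on each array for the 14 collagen probe sets that differed between ETV1 and control; points are arrays in the order A to C or A to D, and bars are group means. For COL4A1, COL4A2, COL8A1 and COL12A1 the lowest ETV1 point is replicate D, and it still lies above every control point.

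In the basement membrane family 7 of 11 tested probe sets rose, 0 fell, and the median difference was 1.07. COL4A1 encodes the alpha 1 chain, the most widespread collagen IV chain. Its probe set 211980_at read 242.13, 198.58 and 152.34 on control arrays A to C, and 773.27, 854.40, 831.48 and 378.81 on ETV1 arrays A to D. All ETV1 arrays lay above all control arrays, with replicate D well below the other ETV1 arrays. The means were 198 ± 44.9 (SD, n = 3) and 709 ± 223 (SD, n = 4), a difference of 1.72 (SE 0.23, limma adjusted p = 6.6e-05). The second COL4A1 probe set, 211981_at, read 135.28, 91.74 and 105.19 against 418.50, 459.19, 483.00 and 253.40. It rose by nearly the same amount, 1.70 (SE 0.20, limma adjusted p = 2.0e-05), with no overlap between the groups.

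COL4A2 encodes the alpha 2 chain, which joins the alpha 1 chain in the same trimer. Probe set 211964_at read 342.65, 367.93 and 305.09 on the control arrays and 1293.13, 1705.94, 1532.83 and 593.99 on the ETV1 arrays, a difference of 1.77 (SE 0.25, limma adjusted p = 1.2e-04). Probe set 211966_at read 159.34, 203.91 and 157.75 against 780.67, 1013.76, 969.52 and 375.42, a difference of 1.99 (SE 0.25, limma adjusted p = 3.4e-05). The control and ETV1 arrays did not overlap in either probe set, and replicate D was again the lowest ETV1 array. The 4 probe sets of this gene pair thus gave differences between 1.70 and 1.99. Without replicate D they lay between 1.90 and 2.31. ETV1 itself was also lowest on that array in 217053_x_at, and the intensity of an 18S ribosomal RNA control probe set was 276.43 there and 680.24 to 874.06 on the other ETV1 arrays, against 79.38 to 158.58 on the control arrays. Whether these values have a part in the collagen differences was not tested.

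COL4A6 encodes a chain of the second collagen IV network, which is found in the basement membrane of prostate glands. Its probe set 211473_s_at read 53.90, 61.50 and 26.90 on the control arrays and 104.49, 140.18, 133.28 and 131.85 on the ETV1 arrays, a difference of 1.22 (SE 0.20, limma adjusted p = 3.5e-04). A second probe set, 213992_at, read 227.22 to 301.69 against 537.22 to 606.31 and rose by 1.07 (SE 0.14, limma adjusted p = 4.0e-05). The first reached its test only with the help of the ETV1 arrays, whereas the second was above the median on every array. In both the groups were apart, and replicate D lay within the other ETV1 arrays. The third, 210945_at, differed by 0.09 and was not called, nor was the tested probe set of COL4A5, 213110_s_at, the head-to-head neighbour and trimer partner of COL4A6, also at 0.09. COL4A3, a chain best known from kidney and lung, differed by 0.12 and was not called.

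COL18A1, which carries the endostatin fragment at its end, rose in probe set 209081_s_at. Its values were 153.86, 140.55 and 141.88 on the control arrays and 259.24, 249.91, 269.83 and 314.68 on the ETV1 arrays, a difference of 0.84 (SE 0.13, limma adjusted p = 2.3e-04). Here replicate D was the highest ETV1 array. Its other tested probe set, 209082_s_at, differed by 0.22 and was not called.

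Among the epithelial and transmembrane collagens 1 of 6 tested probe sets rose and 0 fell. COL7A1 forms the anchoring fibrils below the basement membrane of stratified epithelia. Probe set 204136_at read 1627.45, 1503.84 and 1136.94 on the control arrays and 932.94, 960.39, 869.56 and 1280.47 on the ETV1 arrays. The groups overlapped through control C and ETV1 D, and the difference of -0.49 (SE 0.19) had a limma adjusted p of 0.076. It was called lower under several alternatives and not under the others. Among those that called it were the fit without ETV1 replicate D (-0.60, limma adjusted p = 0.031) and array weights (-0.70). Leaving out the arrays labelled ERG, an alternative added after seeing the data, gave a limma adjusted p of 0.028. The second COL7A1 probe set, 217312_s_at, differed by 0.25 and was not called. COL13A1, a transmembrane collagen of cell junctions, read 83.39, 74.34 and 72.06 against 112.63, 108.42, 112.22 and 119.71 in 211343_s_at and rose by 0.48 (SE 0.12, limma adjusted p = 0.010). That call was lost without control replicate B (adjusted p = 0.051), and its other tested probe sets differed by 0.01 and 0.06. COL23A1, another transmembrane collagen, differed by 0.15 and was not called.

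Of 13 tested probe sets of fibrillar collagens 0 rose and 1 fell, with a median difference of -0.15. COL5A1 encodes a chain that starts and thins collagen I fibrils. Probe set 212489_at read 128.55, 119.44 and 123.37 on the control arrays and 80.51, 77.34, 91.24 and 77.30 on the ETV1 arrays, with no overlap, and fell by 0.52 (SE 0.13, limma adjusted p = 7.4e-03). Its other tested probe sets differed by -0.36 and -0.27 and were not called. COL1A1, the alpha 1 chain of the main stromal collagen, gave no call in any of its 3 tested probe sets. Probe set 1556499_s_at read 263.92, 215.50 and 175.32 against 113.54, 158.12, 163.41 and 134.39, and 202310_s_at read 160.17, 150.50 and 147.64 against 111.80, 122.92, 105.01 and 108.56. In both, every ETV1 array lay below every control array, but the differences of -0.56 and -0.40 had limma adjusted p-values of 0.074 and 0.12. When the arrays labelled ERG were left out of the filter and the fit, an alternative chosen after seeing the data, these values were 0.012 and 0.015. The third COL1A1 probe set, 217430_x_at, differed by 0.19. COL2A1, COL11A2 and COL27A1 gave no call. The partner chain COL1A2 and the other main stromal collagen, COL3A1, had no tested probe set.

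Of 8 tested probe sets of beaded filament and network collagens 2 rose and 0 fell. COL8A1 is a short-chain network collagen known from vessels and from Descemet's membrane of the cornea. Probe set 226237_at read 42.75, 30.23 and 34.68 on the control arrays and 95.96, 108.62, 101.98 and 63.35 on the ETV1 arrays, a difference of 1.05 (SE 0.19, limma adjusted p = 8.0e-04). The groups were apart, but this probe set passed the intensity filter only through ETV1 arrays, so its rise was a condition of being tested. COL8A2, its partner chain, read 50.17, 74.44 and 75.98 against 103.72, 118.14, 98.01 and 107.15 in 52651_at and rose by 0.58 (SE 0.15, limma adjusted p = 0.012). Without control replicate A this difference was 0.43 and was not called (adjusted p = 0.081). The other COL8A2 probe set, 221900_at, had a limma adjusted p of 0.051 for a difference of 0.49. The collagen VI chains COL6A1 and COL6A2, which build beaded filaments around many cell types, gave no call in 5 tested probe sets. Of these, 213290_at of COL6A2 was the farthest from 0, at -0.62 (limma adjusted p = 0.059).

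The fibril-associated and other collagens held 7 tested probe sets, of which 2 rose and 1 fell. COL12A1 coats the surface of collagen I fibrils. Probe set 225664_at read 79.66, 74.17 and 75.08 on the control arrays and 178.28, 210.97, 202.46 and 115.28 on the ETV1 arrays, a difference of 1.03 (SE 0.20, limma adjusted p = 1.3e-03). Probe set 231766_s_at read 22.74 to 26.55 against 46.28 to 98.34 and rose by 0.999 (SE 0.18, limma adjusted p = 8.9e-04). It would have failed the intensity filter without the arrays labelled ERG. The third, 234951_s_at, differed by 0.15 and was not called. The groups were apart in both probe sets that rose. COL9A3, a chain of the cartilage collagen IX, fell in 204724_s_at from 49.87, 58.53 and 43.77 to 18.26, 9.03, 14.39 and 18.28, by 1.11 (SE 0.18, limma adjusted p = 3.2e-04). It was below the array median on all control and ETV1 arrays and was tested only because of the arrays labelled ERG. COL16A1, COL9A2 and COL20A1 gave no call.

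**Figure D2:**
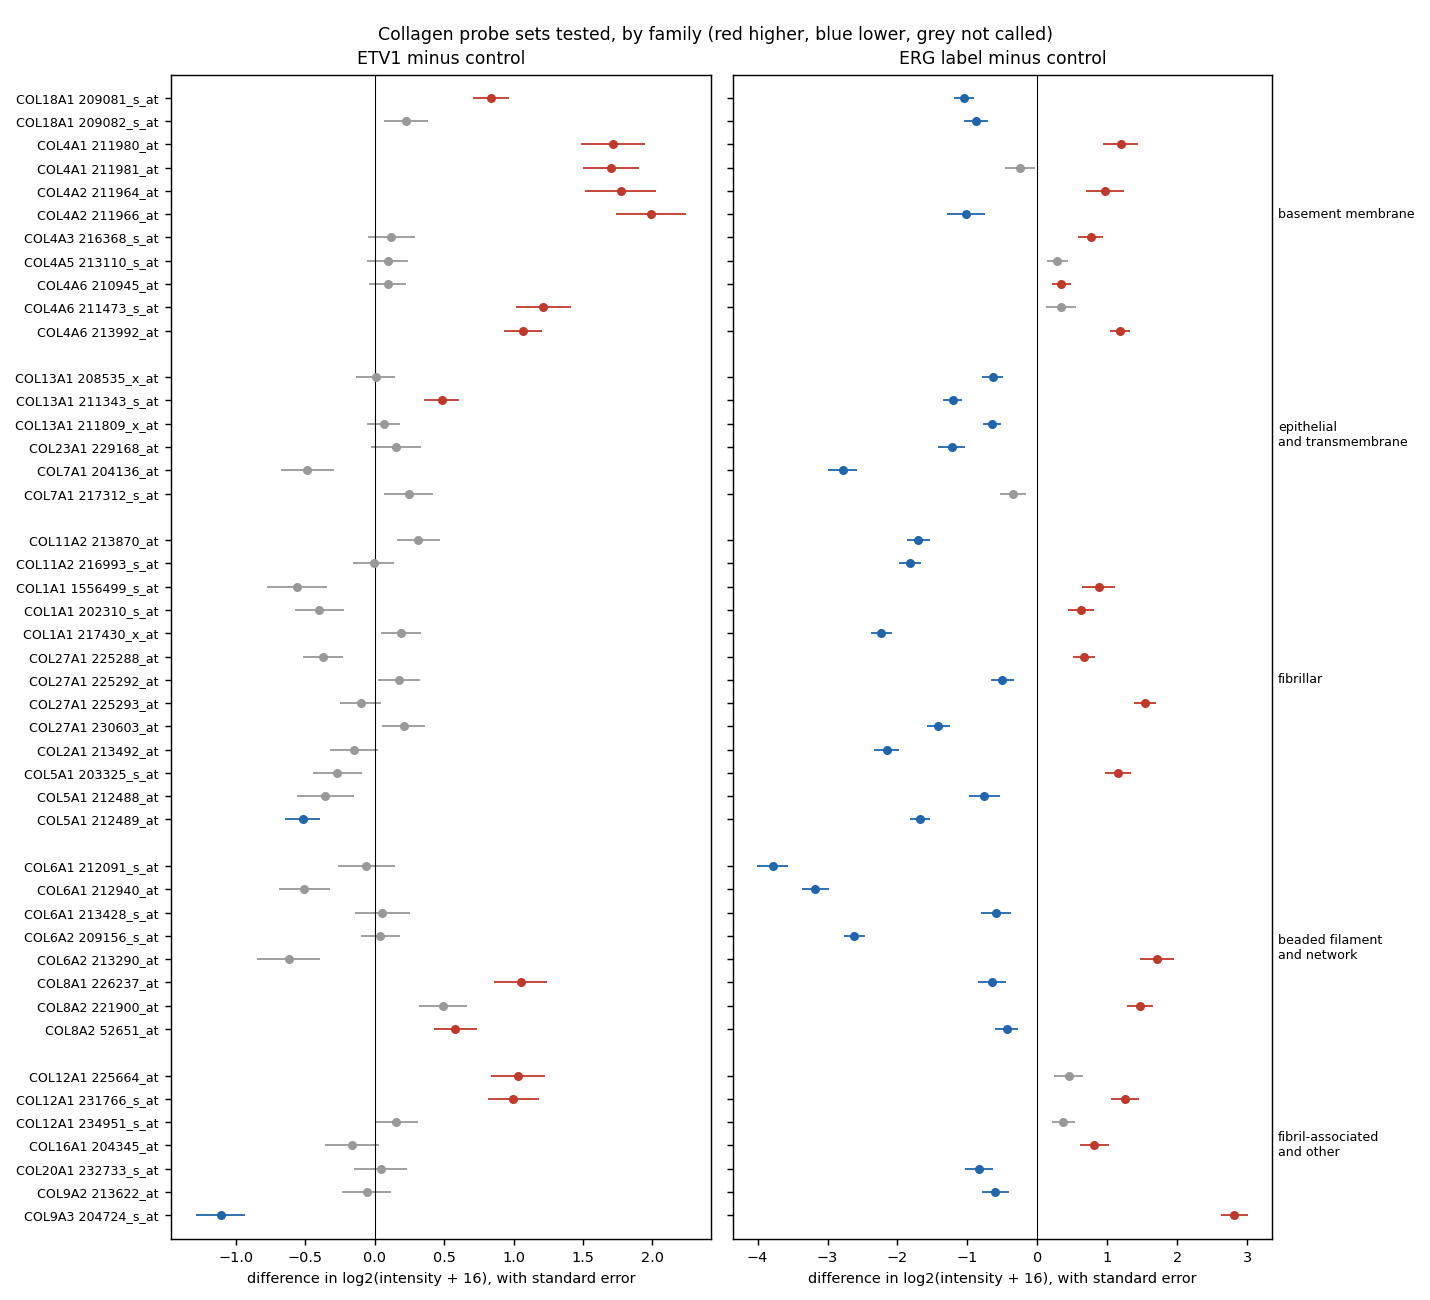
Log2 difference from control (intensity plus 16) with its SE for the 45 tested collagen probe sets, grouped by family, for ETV1 arrays (left) and arrays labelled ERG (right); red rose, blue fell, grey was not called. On the left 12 rose, 7 of them in the basement membrane family, and 2 fell; on the right 15 rose and 24 fell.

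Genes that act with collagens were taken as 4 lists. For each gene named, the value given is that of its called probe set with the largest change. Other probe sets of the gene may differ less, go uncalled or go the other way. Among genes for modification and folding in the endoplasmic reticulum 6 of 19 tested genes rose on the ETV1 arrays and 4 fell, with a median probe set difference of 0.10. By probe set, 10 of 37 rose and 4 fell, beside 10.4% higher and 13.1% lower over all tested probe sets. COLGALT1, which adds galactose to collagen hydroxylysine, rose by 1.02 in 1 of its probe sets. PPIB and CRTAP, the cyclophilin and the scaffold of the prolyl 3-hydroxylase complex, rose by 0.99 and 0.97. Another CRTAP probe set rose by 0.67, and the rest were not called, at 0.29, 0.34 and -0.14. P4HB, the shared subunit of the prolyl 4-hydroxylases, rose by 0.88, whereas PLOD1, a lysyl hydroxylase, fell by 0.83. The list thus held calls in both directions.

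Among genes for processing and crosslinking outside the cell 5 of 11 tested genes rose and 1 fell, with a median of 0.43, and by probe set 9 of 18 rose and 1 fell, beside the same 10.4% and 13.1%. SPARC, a matrix protein that binds collagen IV, rose from 80.3 ± 14.0 (SD, n = 3) to 252 ± 57.3 (SD, n = 4), a difference of 1.46. PXDN, the peroxidase that forms sulfilimine crosslinks in collagen IV, rose from 328 ± 46.3 (SD, n = 3) to 763 ± 75.4 (SD, n = 4), a difference of 1.18. LOXL1, a lysyl oxidase family enzyme, fell by 0.97, from 242 ± 36.2 (SD, n = 3) to 115 ± 11.5 (SD, n = 4). TGM2, a transglutaminase, rose by 0.90 although its arrays overlapped between the groups.

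Of 6 tested collagen receptor and uptake genes 1 rose and 0 fell, which was 2 of 14 probe sets, beside 10.4% over all tested. This was ITGA2, the collagen-binding integrin subunit of epithelia, whose probe set 205032_at rose from 183 ± 24.1 (SD, n = 3) to 597 ± 154 (SD, n = 4), a difference of 1.59. Among the laminins and other basement membrane partners 4 of 11 tested genes rose and 0 fell, with a median of 0.13, and by probe set 5 of 20 rose, beside 10.4% over all tested. LAMB1, a laminin beta chain, rose from 220 ± 41.9 (SD, n = 3) to 645 ± 116 (SD, n = 4), a difference of 1.48, and LAMB3, HSPG2 (perlecan) and AGRN (agrin) rose by 0.73, 0.60 and 0.43.

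**Figure D3:**
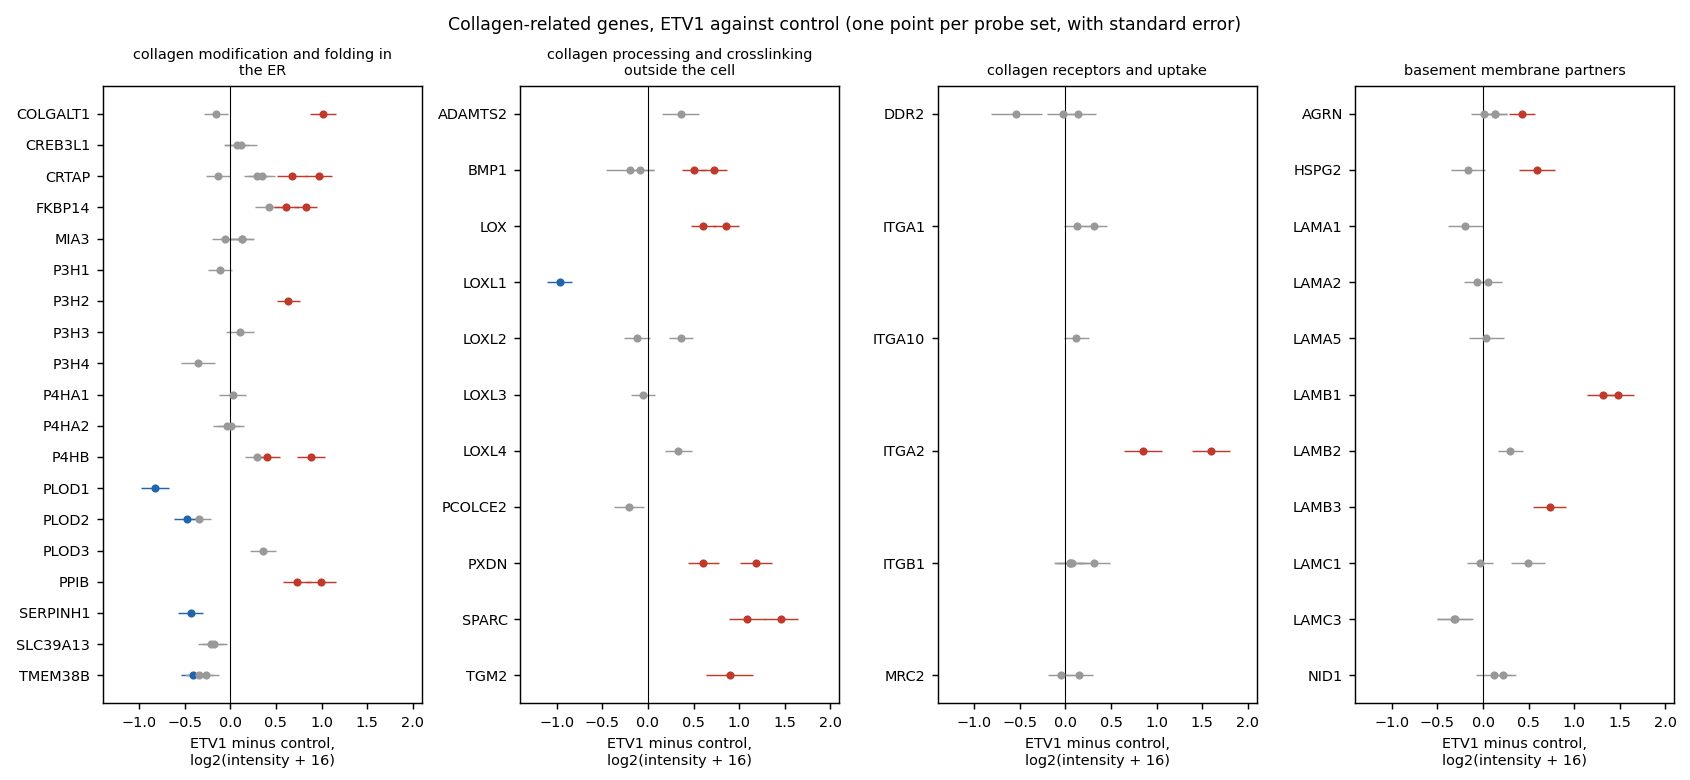
Log2 difference between ETV1 and control arrays with its SE for each tested probe set of the 4 lists of genes that act with collagens; red rose, blue fell, grey was not called. SPARC, PXDN, ITGA2 and LAMB1 lie farthest to the higher side in their lists, and LOXL1 and PLOD1 are among those lower.

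The comparison of the arrays labelled ERG with control rests on arrays whose label could not be checked by ERG itself. Here 15 of the 45 collagen probe sets rose and 24 fell, while 78.4% of all tested probe sets differed, 43.3% higher and 35.1% lower. The share of collagens that differed, 86.7%, was thus near that of all probe sets. The same shares over all tested probe sets stand beside each family count below. Probe sets of COL1A1, COL27A1, COL4A2, COL5A1, COL6A2 and COL8A2 were called in both directions, which made up 6 of the 11 collagen genes with 2 or more calls, beside the 50.3% over all genes. For COL5A1 and COL6A2 the probe set called higher passed the filter only through the arrays labelled ERG. After quantile normalization the genes called in both directions were 4 of 11, without COL4A2 and COL8A2. The other 5, COL4A6, COL6A1, COL11A2, COL13A1 and COL18A1, had calls in 1 direction among their tested probe sets. The median difference was -0.50 for collagens and 0.17 for all tested probe sets. Centring each array on its median moved these to -0.10 and 0.58 and the collagen calls to 19 higher and 15 lower. Quantile normalization gave medians of -0.24 for collagens, with 18 higher and 17 lower, and 0.05 for all tested probe sets. A filter at the 75th percentile left 16 collagen probe sets with a median of 0.48, beside 0.43 for all tested under that filter.

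**Figure D4:**
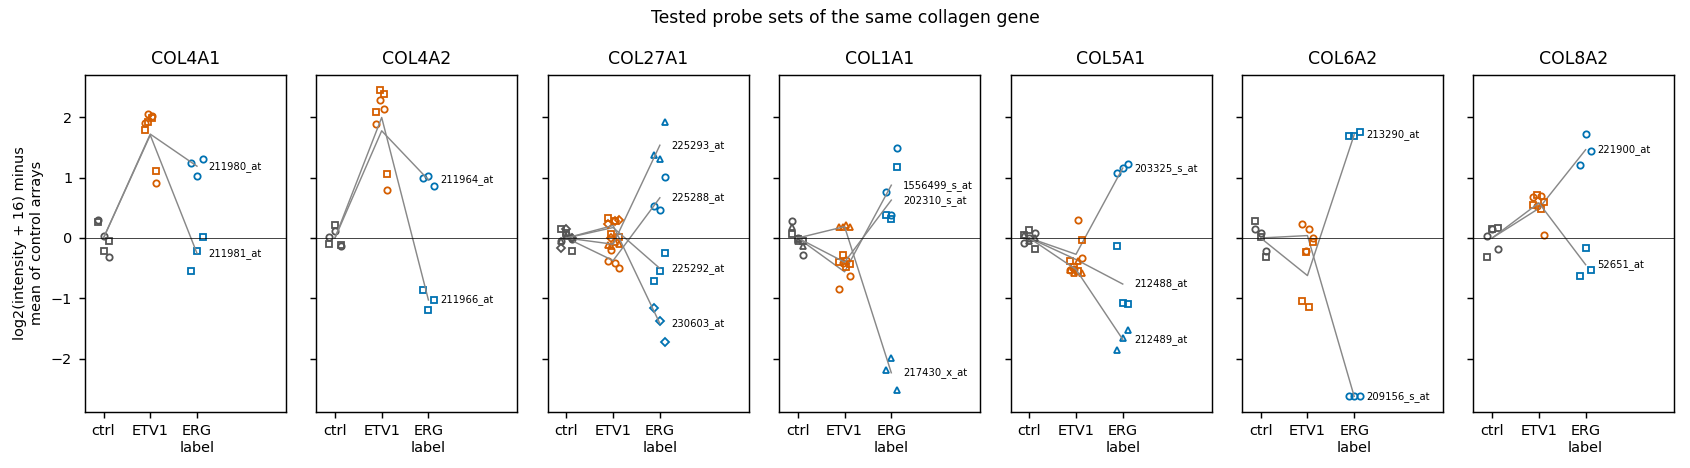
Log2 intensity (plus 16) minus the control mean on each array for the tested probe sets of COL4A1, COL4A2, COL27A1, COL1A1, COL5A1, COL6A2 and COL8A2; marker shapes are probe sets, colours are groups and lines join the group means. Probe sets keep close together on the ETV1 arrays for COL4A1 and COL4A2 and separate on the arrays labelled ERG.

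Under the ERG label 5 of 11 tested basement membrane probe sets rose and 3 fell, beside 43.3% higher and 35.1% lower over all tested. Among those that rose, COL4A3 216368_s_at, at 0.76 (limma adjusted p = 1.2e-03), passed the filter only through these arrays. COL4A2 probe set 211964_at read 691.27, 705.10 and 624.13 and rose by 0.96 (SE 0.27, limma adjusted p = 4.2e-03). Probe set 211966_at of the same gene read 88.08, 66.26 and 76.95 and fell by 1.02 (SE 0.27, limma adjusted p = 2.4e-03), a call that was lost after quantile normalization at -0.67 (adjusted p = 0.066). So the COL4A2 values lay above control in 1 probe set and below it in the other. COL4A1 211980_at read 482.86, 410.39 and 502.09 and rose by 1.19 (SE 0.25, limma adjusted p = 3.7e-04), while 211981_at read 69.81, 91.71 and 110.54 and was not called at -0.25, or at 0.12 after quantile normalization and 0.16 after median centring. COL4A6 213992_at rose by 1.18, to 556.19, 618.77 and 711.58 (limma adjusted p = 1.9e-06). COL18A1 fell in both tested probe sets, by 1.05 in 209081_s_at and 0.88 in 209082_s_at.

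The epithelial and transmembrane family held 5 probe sets that fell of 6 tested and 0 that rose, beside 35.1% lower and 43.3% higher over all tested. The share that differed, 83.3%, was near the 78.4% over all tested. The 5 came from 3 genes, and COL13A1 gave 3 of them. COL7A1 204136_at read 138.11, 198.63 and 249.57, far below its control values, and fell by 2.79 (SE 0.20, limma adjusted p = 4.8e-09). The other COL7A1 probe set, 217312_s_at, overlapped control at 307.18 to 437.60 and was not called at -0.35, a direction that turned to 0.06 after median centring. It was called lower after quantile normalization (-0.46), with array weights (-0.82), without control replicate C (-0.48) and without ERG replicate C (-0.49). All 3 tested COL13A1 probe sets fell, 211343_s_at by 1.21, and COL23A1 fell by 1.22 in its tested probe set, 229168_at.

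Fibrillar collagens gave 5 higher and 8 lower calls of 13 probe sets, beside 43.3% higher and 35.1% lower over all tested. COL1A1 rose in 1556499_s_at, to 374.92, 283.82 and 634.28, by 0.87 (SE 0.23, limma adjusted p = 2.7e-03). It fell in 217430_x_at, from 767.76, 650.37 and 618.58 on the control arrays to 136.27, 158.71 and 104.96, by 2.23 (SE 0.15, limma adjusted p = 2.4e-09). The third tested COL1A1 probe set, 202310_s_at, rose by 0.63 (SE 0.19, limma adjusted p = 6.2e-03). The groups did not overlap in any of them, so probe sets of this gene went apart on every array. COL27A1, a fibrillar collagen of cartilage, rose by 1.53 in 225293_at, to 758.89, 720.47 and 1117.60, and fell by 1.41 in 230603_at, to 37.19, 29.65 and 19.97. COL5A1 fell by 1.68 in 212489_at and rose by 1.16 in 203325_s_at, which passed the filter only through these arrays. COL2A1, the main cartilage collagen, fell by 2.16 in 213492_at, from 183.18, 206.25 and 178.91 to 46.07, 17.99 and 30.18. Both tested probe sets of COL11A2, a chain of the thin cartilage fibrils, fell, 216993_s_at by 1.82. The summed fibroblast, endothelial and leukocyte marker intensities were also lower on these arrays, as given above, and their part in these values was not tested.

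Of the beaded filament and network probe sets 2 rose and 6 fell, beside 43.3% higher and 35.1% lower over all tested. COL6A1 212091_s_at read 353.60, 294.42 and 234.28 on the control arrays and 18.55, 1.04 and 2.59 on the arrays labelled ERG, and fell by 3.79 (SE 0.22, limma adjusted p = 3.7e-10). With values this near the floor the added constant sets the size, which was -5.80 with 1 and -2.32 with 64 in place of 16. Its other tested probe sets fell too, 212940_at to 4.77, 1.68 and 14.09, also near the floor, and 213428_s_at by 0.59. COL6A2 209156_s_at read 99.40, 94.23 and 73.48 against exactly 1 on all 3 arrays, a floor that the deposited values share across at least 663 probe sets per array, and fell (limma adjusted p = 3.8e-10). The size of this fall is not measured, since it was -5.48 with an added constant of 1, -2.62 with 16 and -1.23 with 64. Its probe set 213290_at, which passed the filter only through the arrays labelled ERG, rose from 55.42, 43.67 and 31.47 to 173.78, 171.92 and 181.44, by 1.71 (SE 0.24, limma adjusted p = 8.4e-06). COL8A2 rose by 1.46 in 221900_at and fell by 0.44 in 52651_at, where the call was lost after quantile normalization (-0.060), after median centring (-0.033) and without control B, control C, ERG A or ERG C. COL8A1 fell by 0.65, a call lost after quantile normalization, after median centring and without ERG replicate A.

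Of the fibril-associated and other probe sets 3 rose and 2 fell, beside 43.3% higher and 35.1% lower over all tested. COL9A3 204724_s_at read 488.57, 576.65 and 325.61 and rose by 2.81 (SE 0.19, limma adjusted p = 2.2e-09), though it was tested only because of these arrays. COL12A1 231766_s_at rose by 1.25 and would likewise have failed the filter without these arrays. COL16A1, another fibril-associated chain, rose by 0.81. COL20A1 and COL9A2 fell by 0.84 and 0.60.

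The genes that act with collagens were called both ways too. In the modification, processing, receptor and partner lists 28 of 37, 15 of 18, 13 of 14 and 16 of 20 tested probe sets differed, beside 78.4% of all tested probe sets. In the modification list 6 genes rose, 8 fell and 4 had probe sets called both ways, of 19 tested, and P4HB fell by 2.43 in 1 probe set. In the processing list 5 rose and 5 fell of 11, among them LOXL4, which fell by 2.40, and TGM2, which rose by 1.85. Of the 6 receptor genes 2 rose, 2 fell and 2 went both ways. Of the 11 basement membrane partners 4 rose, 4 fell and 1 went both ways, with LAMB1 higher by 3.16 and AGRN lower by 4.32.

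Set directly against the ETV1 arrays, the arrays labelled ERG had 10 collagen probe sets higher and 29 lower, beside 82.1% of all tested probe sets that differed, 45.6% higher and 36.5% lower. This comparison shares its arrays with the other 2. Of the basement membrane probe sets 7 were lower under the ERG label and 1 was higher. The higher one, COL4A3 216368_s_at, passed the filter only through the arrays labelled ERG. COL4A2 211966_at was lower by 3.02 on the log2 scale (limma adjusted p = 1.4e-08) and 211964_at by 0.81 (limma adjusted p = 7.8e-03), the latter with overlap through ETV1 replicate D and with its call lost after median centring, at -0.38 (adjusted p = 0.18). COL4A1 was lower in both probe sets, by 1.95 in 211981_at and 0.53 in 211980_at (limma adjusted p = 0.044), and the second call was lost under several alternatives, among them without ETV1 replicate A, B or C and after median centring. COL4A6 was lower by 0.88 in 211473_s_at (limma adjusted p = 6.6e-04, no overlap), while 213992_at was not called at 0.11 nor 210945_at at 0.25. The epithelial and transmembrane family had 6 of 6 tested probe sets lower. COL9A3, tested only because of the arrays labelled ERG, was higher by 3.93.

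The 67 untested collagen probe sets read at most 93.44 on any array and cover 20 genes with no tested probe set. In the basement membrane family these are COL4A4 and COL15A1. The fibrillar genes without a test are COL1A2, COL3A1, COL5A2, COL5A3, COL11A1 and COL24A1. The others are COL25A1, COL6A3, COL6A5, COL6A6, COL10A1, COL9A1, COL14A1, COL19A1, COL21A1, COL22A1, COL26A1 and COL28A1. With no filter on intensity, 2 of the 67 were higher on the ETV1 arrays and 0 were lower, while over all 41091 probe sets 5.77% were higher and 6.39% lower. They were COL15A1 203477_at, a basement membrane zone collagen, at 0.50 (limma adjusted p = 0.036) and COL4A5 234387_at at 0.82 (limma adjusted p = 7.9e-03). Under the ERG label 9 of the 67 were higher and 19 lower, beside 34.6% and 31.3% of all probe sets. Among them COL6A1 214200_s_at was higher by 1.09 (limma adjusted p = 4.7e-04), against the falls of its tested probe sets. COL6A1 212938_at and 216904_at were lower, by 1.89 and 0.48, and its other untested probe sets were not called. COL1A2 stayed dim on every array. Its probe set 202403_s_at read 4.04 to 5.84 on the control arrays and 15.80, 10.47 and 36.51 on the arrays labelled ERG. With no filter it was higher by 0.76 under the ERG label (limma adjusted p = 0.005). COL1A2 229218_at was higher by 0.68 (limma adjusted p = 7.7e-04), and 202404_s_at was not called at 0.19.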

How the data were processed

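The values are array intensities on a linear scale as deposited by the authors in 1 table of all arrays. Their summary and normalization are not given in the sources used here. No value lay below 0.48, and each array held between 663 and 1604 values of exactly 1. Probe sets were named from the platform annotation: 41091 name 1 gene, 1801 several, 11721 none and 62 are controls, and 54 symbols had no match in the RefSeq gene table.

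Log2 of intensity plus 16 was fitted with limma 3.58.1 in R 4.3.3 as 1 model holding all 3 groups (7 residual degrees of freedom), and p-values were two-sided and Benjamini-Hochberg adjusted over 25969 probe sets above their array's median on at least 3 arrays. The deposited intensities carry no detection calls, and the number of arrays limits the precision. The script was tested on simulated data.

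Members, lists and tests were chosen with earlier results of these data known. Collagen probe sets were named by rule when they passed with a log2 difference of at least 1 in either comparison with control (1 per gene, and any going the other way). All probe sets of COL4A1, COL4A2, COL1A1, COL1A2 and COL7A1 were named as well. Among them were COL1A1 202311_s_at and 202312_s_at, which were not tested and whose values are not printed. Array values are printed for only part of these, in some cases for part of the arrays. For others, such as COL11A2 216993_s_at, COL23A1 229168_at and COL8A2 221900_at, only differences are given. Values of other probe sets were chosen after they were seen. Up to 4 genes per related list were named by size. Alternatives covered scaling, filter, pseudocount, probe set choice, weights, samples and replicate letters.

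The labels do not say whether the letters A to D pair the arrays, and the main model did not pair them. Deviations from the group means correlated at -0.099 to 0.087 between arrays of the same letter, and at -0.159 to 0.101 between others. No shared deviation by letter was thus seen, but with so few arrays this cannot show whether they were made in matched sets. The silencing experiments in LNCaP and VCaP cells that the series title mentions were not analysed here.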

Additional observations from a re-analysis of the deposited data

Results flagged for a closer look

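COL4A1 probe set 211980_at had 1 ETV1 array far from the others. Replicate D read 378.81, while the other 3 ETV1 arrays read 773.27 to 854.40. The gap between replicate D and its nearest neighbour was 0.876 of the group's whole range on the scale of log2 intensity plus 16, above Dixon's critical value for 4 arrays. On the linear intensity scale this share was lower and all but equal to the critical value. The 28 named collagen probe sets were checked in this way, and chance alone flags about 1 in 20 groups. The rise of this probe set was 1.72 with replicate D and 1.99 without it.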

How the results depend on the processing

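For ETV1 against control, the 12 higher collagen probe sets became 5 with a filter at the 75th percentile and 6 with the brightest probe set per gene, and lay between 11 and 13 when each array was left out in turn. The 2 lower became 6 after quantile normalization, 5 after median centring, 1 without _s_at, _x_at and _a_at probe sets, 11 with array weights, 7 with only the 2 groups compared, 4 with a pseudocount of 64, 6 without the arrays labelled ERG (added after seeing the data), and 2 to 6 with an array left out. With the replicate letter as a block they became 5. The 6102 calls over all probe sets became 3553 with the brightest probe set, 3254 without the suffixed ones, 17480 with array weights (whose estimation did not fully converge) and 3454 at an adjusted p of 0.01.

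For the ERG label against control, 15 higher and 24 lower collagen probe sets became 24 and 43 with no filter, 8 and 5 at the 75th percentile, 9 and 12 with the brightest probe set, and 9 and 13 without suffixed ones, and the lower became 15 after median centring. The 20359 calls over all probe sets became 11154, 11305 and 12291 under the percentile, brightest and suffix settings. Median centring moved the share of higher calls over all probe sets from 55.2% to 68.2% (14681 higher, 6841 lower). For the ERG label against ETV1, 10 higher and 29 lower became 22 and 49, 5 and 9, 6 and 15, and 5 and 16 under the same 4 settings, with totals of 11848, 11827 and 12830 under the last 3, and the higher lay between 6 and 11 with an array left out. There the share of higher calls moved from 55.5% to 67.4% (14915 higher, 7210 lower) after median centring. Fewer probe sets are tested under the stricter filter, the brightest probe set and the suffix rule. The cause of the other changes was not tested.

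Signs turned for 11 of the 1791 values of single named probe sets under an alternative. No turned value was called in the main setting. Against control on ETV1 arrays these were COL11A2 216993_s_at (0.013 after quantile normalization, -0.040 to 0.029 with an array left out), COL7A1 217312_s_at (-0.14 with array weights), COL6A1 212091_s_at (-0.21 to 0.074 with an array left out) and COL6A2 209156_s_at (-0.071 to 0.12 with an array left out). Under the ERG label they were COL4A1 211981_at (0.12 quantile, 0.16 median centring), COL7A1 217312_s_at (0.059 median centring) and COL4A6 211473_s_at (-0.19 with array weights). The COL4A1 and COL4A2 differences between ETV1 and control kept their direction and their call under all alternatives run that tested them, between 1.40 and 2.31. Low intensities without detection calls limit what can be said of the 67 untested probe sets.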

Other observations

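The 3 ETV1 probe sets that rose (206501_x_at, 217053_x_at and 217061_s_at) ordered the 4 ETV1 arrays B, C, A, D from high to low. The same order was seen for COL4A2 in both probe sets, COL4A1 211980_at, COL8A1 226237_at and COL12A1 in 225664_at and 231766_s_at. COL4A1 211981_at differed from it only in having C above B. The collagens that rose without this order were COL4A6, COL18A1, COL8A2 and COL13A1. Replicate D was the lowest ETV1 array for 7 of the 12 collagen probe sets that rose and the highest for 2, those of COL18A1 and COL13A1. With 4 arrays no relation was tested.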
